A study of Mus musculus with 34 samples.

Results

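The transcription factors p65 and PDX1 were mapped in the same β-cell line under the same cytokine, and the regions each occupied were sorted by whether the other was found there too. The regions are 70319 of the 174035 peaks in the 10 peak lists of the study. They were called by chromatin immunoprecipitation with sequencing (ChIP-seq) in wild-type (WT) Beta-TC6 cells, an established mouse insulin-producing β-cell line, treated with the inflammatory cytokine IL-1β. The p65 list holds 31389 peaks and the PDX1 list 38930. A p65 and a PDX1 peak were called shared where their windows overlapped by at least 1 bp, which gave 10612 pairs, each of 1 p65 and 1 PDX1 peak. The other 20777 p65 peaks had no PDX1 peak on them, and the other 28318 PDX1 peaks had no p65 peak. Each group had 3 immunoprecipitated samples, 6 of the 34 samples in the study, and both were compared by the authors with the same input. All cells, controls included, had received a 1 h pulse of 10 µM forskolin to synchronise their clocks. The lists used for comparison come from the same line. They are of WT cells without IL-1β (control) and of Bmal1-/- cells with IL-1β and, for PDX1, also without it. Others are of WT cells that received control siRNA or siRNA against Pdx1, in which the corepressor scaffold SIN3A was mapped. The sources used here give neither the IL-1β dose and time nor whether the knockout is 1 clone.

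p65, encoded by Rela, is a transactivating subunit of NF-κB. IκB inhibitors hold it in the cytoplasm until a receptor such as that for IL-1 triggers their destruction, after which it binds κB sites and switches on cytokine genes together with the genes of its own inhibitors. PDX1 is a homeodomain factor that recognises a core of TAAT, is needed to form the pancreas, and in the adult β-cell sustains the genes of insulin and glucose sensing. Peaks of the 2 factors come from separate immunoprecipitations of many cells, so binding to 1 DNA molecule at a time and binding in different cells cannot be told apart.

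Each list is a single result for its group with no value per sample, so no difference could be set against replicate spread and no p-value is given. Shares carry Wilson 95% intervals and differences of shares Newcombe 95% intervals, which cover counting error only. Depth was 53.5 M tags for p65 and 61.8 M for PDX1, with peak windows of 206 and 226 bp, and the PDX1 control list, of 60.2 M tags, used another input. For the IL-1β-treated PDX1 samples, WT and knockout alike, title and antibody label conflict: the title says PDX1 and the label says p65, and they were taken as PDX1 after the title. Of the PDX1 peaks with IL-1β 61.8% (24051 of 38930) lay on a PDX1 peak of the control list, whose antibody label names PDX1, and 27.3% on a p65 peak with IL-1β. The 10 highest p65 peaks included 7 with no PDX1 peak on them, among them those at Tnfaip3, Nfkbia and Relb. Of the 100 highest p65 peaks 54 had a PDX1 peak, and of the 100 highest PDX1 peaks 87 had a p65 peak. Of all 31389 p65 peaks, 10612 lay on a PDX1 peak with IL-1β and 7847 on a PDX1 peak of the control list. Whether title or label is right was not tested, nor was an admixture of p65 signal in the PDX1 samples.

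The promoters below show what the classes look like in sequence. Each is the 300-base window from 250 bases before to 50 bases after an annotated start, read 5′ to 3′ on the gene's strand from RefSeq (GRCm38.p6, the assembly called mm10). Capitals mark matches, on either strand, to a κB consensus or to the homeodomain core TAATNA. Irf1 and Neurl3 carried a shared peak on promoters with a κB match, Ins1 and Iapp carried a shared peak on promoters with homeodomain matches alone, Nfkbia and Tnfaip3 carried p65 without PDX1, and Rfx6 carried PDX1 without p65. Neurl3 and Rfx6 were chosen as examples after their matches had been seen.
Irf1: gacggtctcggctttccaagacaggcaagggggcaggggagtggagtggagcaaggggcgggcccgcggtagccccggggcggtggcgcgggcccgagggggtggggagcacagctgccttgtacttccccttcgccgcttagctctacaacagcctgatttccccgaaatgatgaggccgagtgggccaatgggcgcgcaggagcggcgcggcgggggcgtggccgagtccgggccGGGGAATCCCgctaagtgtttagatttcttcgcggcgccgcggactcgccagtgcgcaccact
Neurl3: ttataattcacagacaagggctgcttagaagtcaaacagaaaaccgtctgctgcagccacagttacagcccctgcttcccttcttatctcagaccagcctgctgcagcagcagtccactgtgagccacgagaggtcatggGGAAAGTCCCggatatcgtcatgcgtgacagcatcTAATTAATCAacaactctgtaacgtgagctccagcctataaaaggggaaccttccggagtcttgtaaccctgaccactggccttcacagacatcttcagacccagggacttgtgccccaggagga
Ins1: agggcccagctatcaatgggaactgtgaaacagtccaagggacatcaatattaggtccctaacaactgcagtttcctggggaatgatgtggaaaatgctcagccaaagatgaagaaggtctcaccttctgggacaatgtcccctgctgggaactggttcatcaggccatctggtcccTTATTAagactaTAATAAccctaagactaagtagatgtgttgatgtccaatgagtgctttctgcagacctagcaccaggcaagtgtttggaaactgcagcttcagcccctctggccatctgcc
Iapp: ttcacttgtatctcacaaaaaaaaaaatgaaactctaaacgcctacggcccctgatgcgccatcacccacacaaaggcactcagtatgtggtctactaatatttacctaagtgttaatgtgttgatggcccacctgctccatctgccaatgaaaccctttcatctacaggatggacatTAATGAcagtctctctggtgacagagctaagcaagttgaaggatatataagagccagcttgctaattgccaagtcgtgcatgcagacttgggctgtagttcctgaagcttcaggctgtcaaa
Nfkbia: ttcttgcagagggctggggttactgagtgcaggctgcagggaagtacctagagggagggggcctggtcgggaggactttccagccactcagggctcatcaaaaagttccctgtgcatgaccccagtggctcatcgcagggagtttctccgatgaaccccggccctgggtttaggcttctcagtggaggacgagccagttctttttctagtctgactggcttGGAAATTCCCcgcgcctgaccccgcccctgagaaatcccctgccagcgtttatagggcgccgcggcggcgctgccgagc
Tnfaip3: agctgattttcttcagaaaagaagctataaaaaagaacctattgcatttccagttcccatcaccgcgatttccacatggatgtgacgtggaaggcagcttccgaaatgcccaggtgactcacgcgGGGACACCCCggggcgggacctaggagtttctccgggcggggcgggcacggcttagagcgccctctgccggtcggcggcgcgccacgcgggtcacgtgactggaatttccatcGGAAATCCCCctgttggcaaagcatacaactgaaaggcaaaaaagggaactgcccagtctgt
Rfx6: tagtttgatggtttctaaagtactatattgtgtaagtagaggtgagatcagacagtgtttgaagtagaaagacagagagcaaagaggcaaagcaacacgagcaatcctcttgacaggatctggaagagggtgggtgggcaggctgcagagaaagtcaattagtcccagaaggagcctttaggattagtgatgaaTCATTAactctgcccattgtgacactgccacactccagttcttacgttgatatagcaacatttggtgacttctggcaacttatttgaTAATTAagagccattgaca

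The window of Irf1, an interferon-response transcription factor, spans chr11:53769764-53770063 (plus strand), and its match to the κB consensus ends 4 bases before the start. It lay under a p65 peak of 179.5 tags and a PDX1 peak of 11.3 tags. These tag counts, here and below, are the authors' counts normalised to 10 M tags. Counts of p65 and PDX1 come from separate immunoprecipitations, so which is higher at a site is a description and not a measure of relative occupancy. The window of Neurl3, a neuralized-family ubiquitin ligase (chr1:36273376-36273675, minus strand), holds a κB match and 2 overlapping homeodomain matches, under 132.6 p65 tags and 11.8 PDX1 tags. At both promoters p65 had the higher tag count and the PDX1 control list had no peak. The window of Ins1, 1 of the 2 mouse insulin genes (chr19:52264047-52264346, plus strand), lay under 16.8 p65 tags and 31.1 PDX1 tags. That of Iapp, encoding amylin (chr6:142298175-142298474, plus strand), lay under 40.5 and 74.6 tags. The Iapp window lies inside the body of Slco1a5, so that in the counts of genes below its peaks were assigned to Slco1a5 and Iapp had none. At Ins1 and Iapp PDX1 had the higher tag count, and its peak was also in the control list. The window of Nfkbia, encoding the inhibitor IκBα (chr12:55492598-55492897, minus strand), carried a p65 peak of 424.2 tags. That of Tnfaip3, encoding the deubiquitinase A20 that restrains NF-κB (chr10:19015361-19015660, minus strand), carried the highest p65 peak of the list, at 810.9 tags. That of Rfx6, a factor of endocrine pancreas development (chr10:51685268-51685567, plus strand), carried a PDX1 peak of 87.3 tags. This class is that of the window and not of the gene, since 7 p65 peaks were assigned to Rfx6, with 4 shared pairs.

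Of 21263 such windows, from 17492 genes, 122 (0.574%) were overlapped by the p65 peak of a shared pair, 1518 (7.14%) by p65 peaks without PDX1 and 265 (1.25%) by PDX1 peaks without p65, and a window could fall in more than 1 class. The κB consensus matched 4.81% of all windows, 13.1% of those with a shared pair (8.24 to 20.2%, 16 of 122), 21.6% of those with p65 alone (19.6 to 23.8%) and 2.26% of those with PDX1 alone. TAATNA matched 22.6% of all windows, 38.5% of those with a shared pair (30.4 to 47.4%, 47 of 122), 12.5% of those with p65 alone and 47.9% of those with PDX1 alone. Windows with a shared pair thus lay between the single-factor windows for both motifs. Both motifs were present in 5 of the 122, or 4.10%, against 0.701% of all windows, and the interval of 1.76 to 9.24% shows how few these are. Windows can overlap, and those of H2-T22 and Gm6034, counted separately among the 5, cover nearly the same bases. The 122 windows come from 118 genes, and the intervals treat windows as independent. The clock E-box CACGTG matched 7.84% of all windows and 8.20, 12.1 and 9.06% of the classes. Base composition moved with these shares, the median GC content being 53.5% for windows with a shared pair, 63.3% for p65 alone, 54.3% for PDX1 alone and 56.3% for all, and its part in them was not tested. A match describes letters in a window and not a bound site.

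Overlap was more frequent at stronger peaks of either factor, and more steeply so for PDX1. Of all p65 peaks 33.8% (33.3 to 34.3%) lay on a PDX1 peak, and of all PDX1 peaks 27.3% (26.8 to 27.7%) lay on a p65 peak. Each list was divided by tag count into 4 equal bins, the first holding the highest peaks. Overlapping p65 peaks made up 41.8, 36.0, 32.2 and 25.2% of the bins in that order. Overlapping PDX1 peaks made up 52.1, 29.9, 18.0 and 9.06%. In the top 5% it reached 48.0% for p65 and 71.4% for PDX1. At the very top of the p65 list, 3 of the 10 highest p65 peaks (30%, 10.8 to 60.3%) and 54 of the 100 highest lay on a PDX1 peak. The interval of the 10 includes the share of the 100. Of those 100, 31 lay within 1 kb of a gene end, and 5 of these 31 had PDX1. The 10 highest PDX1 peaks included 8 with p65, and the 100 highest 87.

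**Figure D1:**
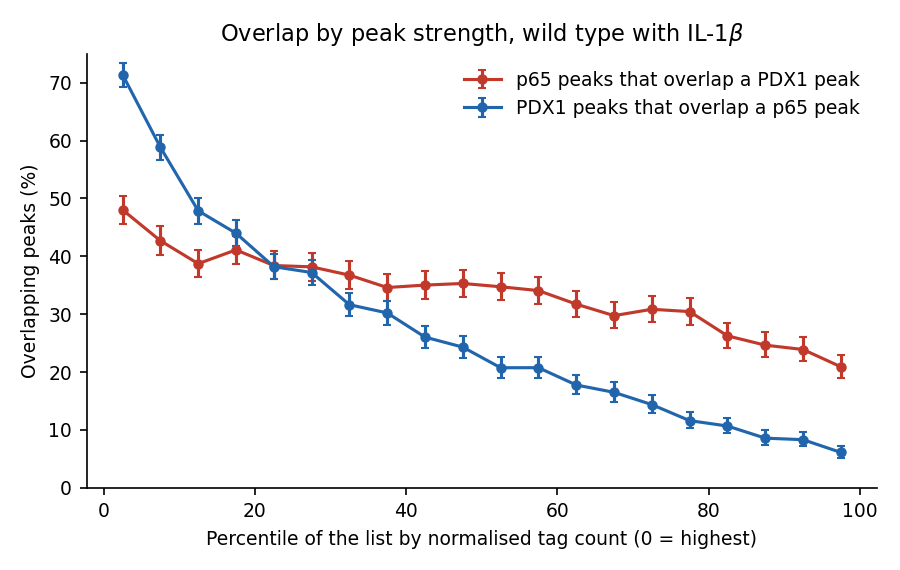
Share of p65 peaks (red) and PDX1 peaks (blue) that overlap a peak of the other factor, in 20 equal parts of each list ordered by normalised tag count, with Wilson 95% intervals. Both curves fall toward weaker peaks, and the blue curve starts higher (71.4% in the top part) and ends lower than the red one (48.0% in the top part).

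Shared peaks had higher tag counts than those of 1 factor alone, with wide overlap between the classes. The median p65 count was 12.1 at shared peaks (quartiles 6.91 and 23.5) and 9.34 at p65 peaks without PDX1 (5.60 and 17.7). The median PDX1 count was 16.2 (9.23 and 28.5) at shared peaks and 7.61 (5.02 and 13.1) without p65. Fold over input, the authors' ratio of immunoprecipitated to input tags, did not move the same way for both factors. Its median was 8.71 at shared and 9.83 at unshared p65 peaks, and 10.4 at shared and 7.43 at unshared PDX1 peaks. Among p65 peaks, therefore, the shared class was higher by tag count and lower by fold over input.

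Within a pair the 2 centres lie close by the pairing rule, since windows of 206 and 226 bp had to overlap. The distances describe placement inside that limit. The median distance between their centres was 57 bp (quartiles 25 and 101 bp), 74.9% of pairs had centres within 100 bp, and the median overlap was 160 bp. In the highest bin of the p65 and of the PDX1 list the median centre distance was 55 and 53 bp, and in the lowest 65 and 70.5 bp. Across the 10612 pairs the log2 tag counts of the factors correlated with r = 0.40 (Spearman's rho 0.43), a description of points that share the cell line and the input. The top bin of both lists held 2135 pairs, or 20.1%. Unshared peaks were mostly far from the other factor: the median gap to its nearest peak was 15402.5 bp for p65 and 22594.5 bp for PDX1, and 7.81% (1623) and 5.64% (1597) lay within 500 bp of one.

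p65 without PDX1 was found at gene ends far more often than p65 with PDX1. At a gene end, that is within 1 kb of either end of a protein-coding gene body, lay 14.2% of p65 peaks without PDX1 (2950 of 20777) and 3.11% of those with it (330 of 10612), a difference of -11.1 percentage points (-11.7 to -10.5). The difference had the same sign in each bin by tag count and was largest at the strongest peaks, with 22.4% against 3.84% in the highest bin and 7.28% against 2.42% in the lowest. Within 1 kb of an annotated start lay 11.7% of the unshared and 1.99% of the shared p65 peaks. Shared p65 peaks were more often farther than 50 kb from any protein-coding gene, at 26.8% against 18.6% (8.16 points, 7.17 to 9.15). Their median distance to the nearest annotated start was 74244.5 bp against 40160 bp. Gene bodies held 47.1% of the shared and 43.4% of the unshared p65 peaks.

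The difference was far smaller for PDX1 peaks. Gene ends held 3.15% of PDX1 peaks with p65 and 3.41% of those without it, a difference of -0.26 points whose interval (-0.644 to 0.145) includes 0. With peaks paired by centres within 100 bp it was -0.572 points (-0.976 to -0.134), an interval without 0. By bin the sign changed, from -1.87 points in the highest to 1.89 in the lowest. Farther than 50 kb from a gene lay 26.8% of the shared and 31.7% of the unshared PDX1 peaks, and this order also turned in the highest bin, at 27.6% against 24.1%. The median distance to an annotated start was 74251.5 bp with p65 and 91416 bp without. Shared regions thus had the distal placement of PDX1 peaks in general, and the gene-end class of p65 was largely outside them.

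**Figure D2:**
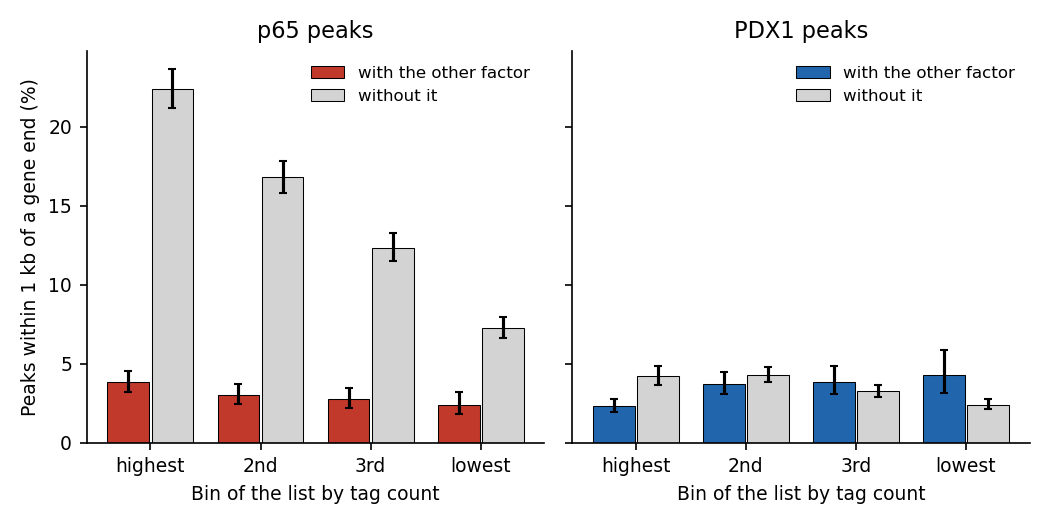
Share of peaks at a gene end (within 1 kb of either end of a protein-coding gene body), for p65 (left) and PDX1 (right), in bins of each list by normalised tag count. Coloured bars are peaks that overlap the other factor and grey bars those that do not, with Wilson 95% intervals, and the grey p65 bars are the tallest (22.4% in the highest bin).

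Assigned to the nearest protein-coding gene body within 50 kb, shared peaks were found at 4382 of 21887 genes (20.0%). Both factors without any overlap were found at 2528 (11.6%), p65 without PDX1 at 3043 (13.9%), PDX1 without p65 at 2089 (9.54%) and neither at 9845 (45.0%). A p65 peak was present at 45.5% of genes and a PDX1 peak at 41.1%. Of the genes with a shared peak 2776 had 1 such peak and 257 had 5 or more. The genes with most shared peaks were the axon guidance receptor gene Robo2 (18), the synaptic adhesion gene Nrxn3 (17), the neurodevelopmental gene Auts2 (13), the calcium channel subunit gene Cacna2d3 (13) and Clstn2 (12), which encodes a calsyntenin. These are long genes, from 589 to 1612.2 kb, and the part of length in their counts was not tested.

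The 2 β-cell lists had the largest shares of genes with a shared peak, 14 of 22 transcription factor genes and 19 of 30 genes of insulin, secretion and glucose sensing. Other counts were 7 of 17 other islet endocrine and disallowed genes, 7 of 16 genes of endoplasmic reticulum stress and apoptosis and 6 of 15 cytokines and chemokines. They were 6 of 15 for cytokine effector and interferon genes and 5 of 14 for feedback inhibitors and other regulators of NF-κB, such as Traf2 and Birc3. Near the 20.0% of all genes were the core clock (5 of 23), markers of other lineages (4 of 20), IL-1 signalling (3 of 16), immediate early genes (3 of 15) and NF-κB subunits (1 of 5). Among genes with a p65 peak, 44.0% of all had a shared one, against 19 of 23 for insulin and secretion and 7 of 10 for other islet endocrine and disallowed genes. The counts were 14 of 21 for β-cell transcription factors, 5 of 13 for NF-κB inhibitors and regulators and 3 of 14 for immediate early genes. With peaks of at least 8-fold over input in both lists, 2045 genes (9.34%) had a shared peak. They included 10 of the 22 β-cell transcription factors, 10 of the 30 insulin and secretion genes and 1 of the 14 NF-κB inhibitors and regulators. With genes taken within 10 kb, 3507 of all 21887 genes had a shared peak, against 4382 within 50 kb. The counts were 16 of 30 for insulin and secretion, 11 of 22 for β-cell transcription factors and 5 of 14 for NF-κB inhibitors and regulators. Those of cytokines and of cytokine effector and interferon genes then fell from 6 to 3 each, other islet genes from 7 to 4, other lineages from 4 to 2 and immediate early genes from 3 to 0. Gene length and the number of peaks per gene were not matched between lists.

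**Figure D3:**
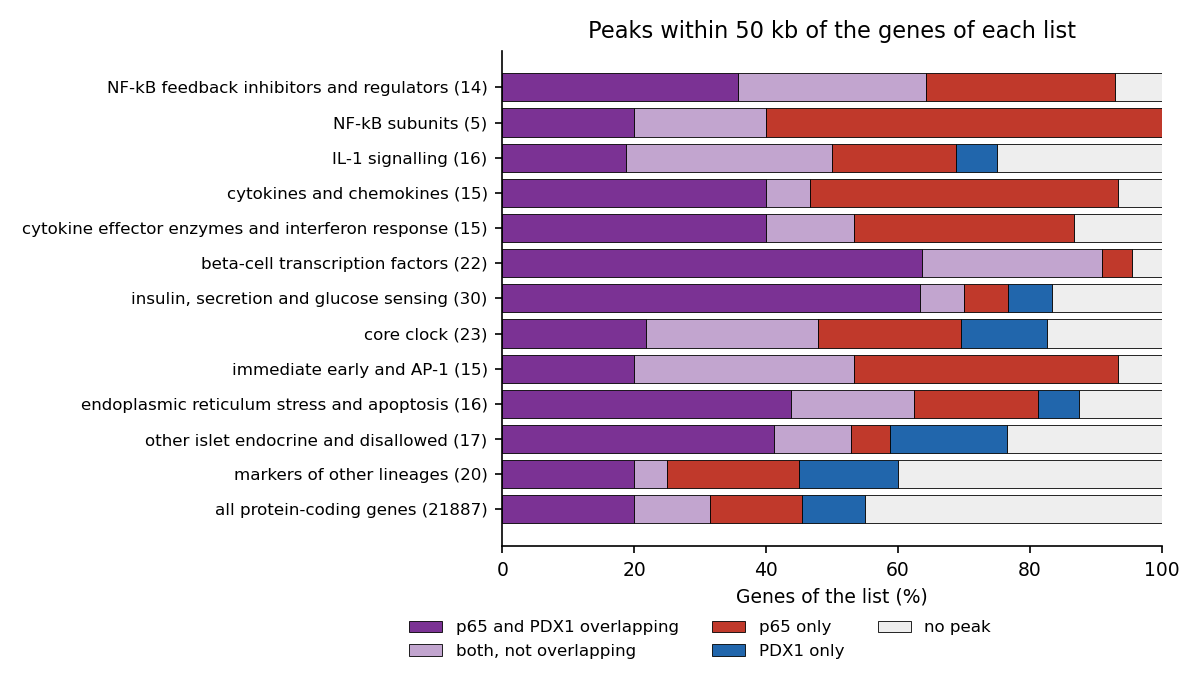
Genes of each list (number of genes in brackets) by the peaks assigned to them within 50 kb, as a percent of the list, beside all 21887 protein-coding genes. The purple part, genes with an overlapping p65 and PDX1 peak, covers 14 of 22 β-cell transcription factors and 19 of 30 insulin and secretion genes, against 20.0% of all genes.

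Genes of feedback inhibitors and other regulators of NF-κB carried their strongest p65 peaks without PDX1. Of the 14 genes 13 had p65, and at each of those 13 the highest p65 peak lay outside the shared class. Over all 9951 gene symbols with p65 this held for 71.2%. Of the 13, 8 had no shared peak at all, so that for these 8 it held by definition. The other 5 are 38.5% of the 13, and a shared peak was present at 44.0% of all genes with p65. At all 5 the highest p65 peak was unshared, against 34.6% of the 4376 gene symbols with a shared p65 peak. At Tnip3, one of the 5, the counts were close, 3.74 tags outside and 3.55 inside the shared class. Nfkbia had 5 p65 peaks and 2 PDX1 peaks, none overlapping. Its 2 highest p65 peaks, of 509.8 tags inside the gene (chr12:55491841-55492047) and 424.2 tags at the start, had no PDX1 peak on them, and the PDX1 peaks of the gene, at -13.3 and -25.1 kb, had 14.1 and 27.5 tags. Tnfaip3 had 3 shared pairs besides its promoter. They lay at 5.92 kb inside the gene with 310.4 p65 and 17.0 PDX1 tags (p65 at chr10:19009392-19009598), at -8.34 kb with 10.5 and 18.9 tags, and at -19.4 kb with 101.8 and 44.4 tags. The PDX1 peaks of the 2 upstream pairs were also in the control list and that of the intragenic pair was not. Nfkbie, another IκB gene, had an unshared p65 peak of 263.9 tags and a shared one of 147.4 with 6.64 PDX1 tags. Nfkbiz, encoding an atypical IκB, had its highest p65 peak of 317.4 tags without PDX1, and a pair inside the gene with 21.3 and 59.3 tags. p65 alone marked Nfkbib (354.3 tags) and Traf2 (105.9 tags), an adaptor of TNF receptors.

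Of the NF-κB subunit genes only Nfkb1 had a shared pair, and it was weak (6.72 p65 and 8.58 PDX1 tags). Nfkb2 (509.2 tags), Relb (403.7) and Rela (201.9) had p65 without PDX1. In IL-1 signalling, the receptor gene Il1r1 had 6 shared pairs, the highest inside the gene at 14.6 kb from its start with 55.7 p65 and 43.7 PDX1 tags. Irak3, which encodes a negative regulator of the receptor complex, had a pair of 107.4 and 45.0 tags, and Irak1, a receptor-associated kinase, one of 11.6 and 17.3. Il1b, the gene of the ligand itself, had only a PDX1 peak of 5.99 tags.

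The 6 cytokine genes with shared pairs differed in which factor had more tags. At Csf1, Ccl2, Ccl20 and Cxcl2 (12 p65 and 5.02 PDX1 tags) the highest shared p65 count was above that of PDX1, and at Il15 (4.3 and 7.77 tags) and Cxcl1 (6.91 and 14.7 tags) it was below. Csf1, encoding the macrophage growth factor M-CSF, had 3 pairs: 245.8 p65 and 6.96 PDX1 tags at -15.5 kb (p65 at chr3:107775880-107776086), 135.2 and 89.4 at -8.28 kb, and 24.1 and 12.3 at -30.0 kb. The weakest PDX1 peak of the 3 stood at the strongest p65 peak, and it was the one absent from the PDX1 control list. Ccl2, a monocyte attractant, had a pair of 63.9 and 5.02 tags, and Ccl20, a lymphocyte attractant, one of 44.3 and 7.29. Tnf (319.8 tags) and Ccl5 (29.0 tags) had p65 peaks and no PDX1 peak. Among effector genes, Nos2, the inducible nitric oxide synthase, had 154.9 p65 and 27.4 PDX1 tags at a site 31493 bp from the gene that was not in the PDX1 control list. Its highest p65 peak, of 214.3 tags, had no PDX1. At Irf1, besides the promoter pair printed above, a p65 peak of 199.1 tags at -7.11 kb had no PDX1.

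β-cell transcription factor genes had pairs in which either factor had the higher count. Pdx1 itself had 3. At -22.7 kb (p65 at chr5:147247250-147247456) p65 had 97.3 and PDX1 25.7 tags, and the PDX1 control list had no peak there. At -5.90 kb (p65 at chr5:147264094-147264300) p65 had 29.0 and PDX1 80.0 tags, and at -2.06 kb p65 had 31.2 and PDX1 46.5, both with a PDX1 peak in the control list. Order of strength thus differed among the pairs of 1 gene. Glis3, a zinc finger regulator of insulin expression, had 7 pairs led by 102.4 p65 and 16.4 PDX1 tags. Mlxipl, encoding the glucose-responsive factor ChREBP, had 77.1 and 93.9. Mnx1, a motor neuron and pancreas homeobox gene, had a highest shared p65 count of 72.3, and Nkx2-2, another homeobox gene of the β-cell, of 57.0. Mafa, an activator of the insulin genes, had 1 peak of each factor, 57.9 tags for p65 and 12.6 for PDX1, that did not overlap.

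Genes of insulin and secretion showed the same mixture, with low p65 counts at both insulin genes. Ins1 had 3 pairs, with 17.4 p65 and 52.5 PDX1 tags at -11.7 kb (p65 at chr19:52252448-52252654), 16.8 and 31.1 at the promoter, and 9.71 and 30.6 at 36.8 kb. PDX1 exceeded p65 in all 3, and all 3 PDX1 peaks were in the control list. Ins2 had a PDX1 peak of 68.5 tags and a p65 peak of 3.92 tags that lay apart. Cpe, encoding a prohormone-trimming carboxypeptidase, had 5 pairs, among them 216.9 p65 and 26.4 PDX1 tags (p65 at chr8:64664910-64665116) and 34.9 and 128.9 (p65 at chr8:64629492-64629698), both inside the gene. Ero1b, an oxidase for disulphide formation in the β-cell, had 176.1 and 50.4. Scg2, a granule protein gene, had 3 pairs, of 117.3 and 58.5 tags at -42.0 kb, 10.6 and 42.9 at -14.7 kb, and 12.3 and 47.6 at 33.4 kb. Kcnj11, the pore of the ATP-sensitive potassium channel, had a p65 peak of 10.5 tags and no PDX1, and Ucn3, a β-cell maturity gene, a PDX1 peak of 14.2 tags and no p65.

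**Figure D4:**
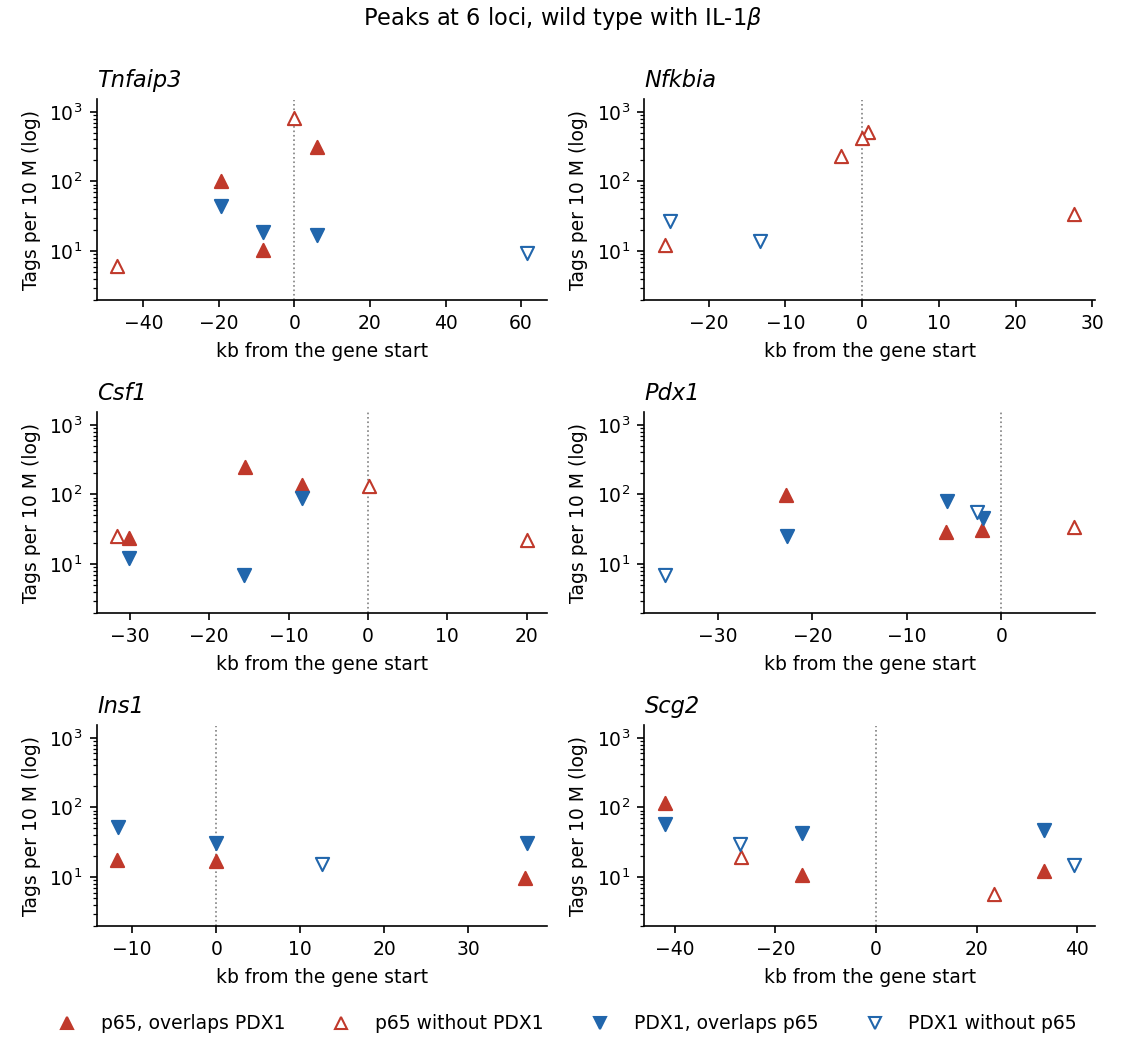
Peaks at 6 loci by distance of their centre from the gene start (positive is downstream), with the normalised tag count on a log axis. Triangles up are p65, triangles down PDX1, and filled symbols belong to overlapping pairs. At Tnfaip3 and Nfkbia the highest p65 peaks (810.9 and 509.8 tags) are open, while at Ins1 each p65 peak is filled and lies below its PDX1 partner.

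Of the 23 clock genes 5 had a pair. Arntl, which encodes the clock activator BMAL1, had 3, the highest by p65 at -44.4 kb with 128.7 p65 and 8.58 PDX1 tags. Cry2, a clock repressor gene, had a shared p65 peak of 44.6 tags and Rora, a nuclear receptor gene, 10 pairs of up to 23.7 p65 tags. Per1 (131.1 tags) and Npas2 (14.4 tags) had p65 alone, and Cry1 (13.0 tags) PDX1 alone. Among immediate early genes Jun had 108 p65 and 44.2 PDX1 tags at a pair, whereas Junb had p65 alone at 538.7 tags. In the stress group, Ern1, which encodes the unfolded protein sensor IRE1α, had 5 pairs led by 184.4 and 22.7 tags, and Ddit3, encoding CHOP, had p65 alone (93.4 tags). Hk1, a hexokinase gene that mature β-cells keep low, had pairs of 59.2 p65 and 152.5 PDX1 tags and of 18.5 and 91.8. Pecam1, an endothelial adhesion gene listed as a marker of another lineage, had 432.8 and 76.1 tags at 1 pair inside the gene (p65 at chr11:106674823-106675029).

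Ranked by both lists together, the strongest pair lay inside Tenm2, a teneurin adhesion gene (p65 at chr11:36150856-36151062), with 272.9 p65 and 138.1 PDX1 tags, and the next was a site 5949 bp from Ccdc18 (395.6 and 105.6 tags). Tenm3 (384 and 88.9 tags), Pecam1, Inpp4b (267.1 and 77.4), Ankrd44 (235.2 and 79.7) and Cacna1a (147.9 and 132.8) were also among the 10. The p65 window of each of the 10 lay on a p65 peak of the control list and on peaks of both factors in the Bmal1-/- lists with IL-1β. For 9 of them the p65 window also lay on a PDX1 peak of the control list, Ankrd44 being the exception. The PDX1 windows of these pairs were not counted here. The 10 highest p65 peaks without PDX1 included those at Tnfaip3, Junb, Nfkbia (2 peaks), Nfkb2, Kcnn1, Relb, Nfkbib and Rhbdl2, and each of the 10 was also in the p65 control list. The highest nuclear PDX1 peak without p65 lay 2255 bp from Elobl (209.7 tags), followed by peaks inside Prune2 (154.5), near no gene within 50 kb (138.3), and inside Traf3ip2 (136.5), which encodes an adaptor of IL-17 signalling. All of these PDX1 peaks were in the PDX1 control list.

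Most shared regions were PDX1 regions before IL-1β. Of the p65 peaks with PDX1 66.3% (65.4 to 67.2%) lay on a PDX1 peak of the control list, against 3.91% of those without it, which by construction have no PDX1 peak under IL-1β. Counting a pair where either of its peaks overlapped a control peak, 58.6% of the 10612 pairs had PDX1 and no p65 in control cells, 10.1% had both, 0.867% (92 pairs) had p65 and no PDX1, and 30.4% (3229) had neither. The control lists hold 40028 PDX1 and 3157 p65 peaks, so the length of the p65 list limits how many pairs could have p65 in control cells. Median PDX1 counts with IL-1β were 41.0 at the pairs with both, 20.1 at those with PDX1 only and 8.26 at those with neither. The 92 pairs with p65 only had a median of 126.3 p65 and 15.2 PDX1 tags, and the Irf1 promoter was among them.

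At a given PDX1 strength, a shared PDX1 peak was less often in the control list than one without p65, although the pooled order was the opposite. The pooled shares were 68.5% for shared and 59.3% for unshared PDX1 peaks. By PDX1 bin from the highest to the lowest they were 91.6 against 94.0%, 64.3 against 76.3%, 35.4 against 56.7% and 15.5 against 30.1%. The share also depended on p65. In the highest PDX1 bin 84.7% of pairs in the highest p65 bin had PDX1 in control (1808 of 2135), against 97.8% of those in the lowest (269 of 275). In the lowest PDX1 bin the values were 1.61% (2 of 124, 0.443 to 5.69%) and 26.9% (101 of 376, 22.6 to 31.6%). PDX1 peaks of the lowest bin on p65 peaks of the highest bin were thus nearly all without a PDX1 peak in control cells. The PDX1 peak at -15.5 kb of Csf1, of 6.96 tags, is in the third PDX1 bin, where the value for the highest p65 bin was 6.0% (22 of 367). The conflicting antibody label given above bears on these weak PDX1 peaks, and its part in them was not tested.

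**Figure D5:**
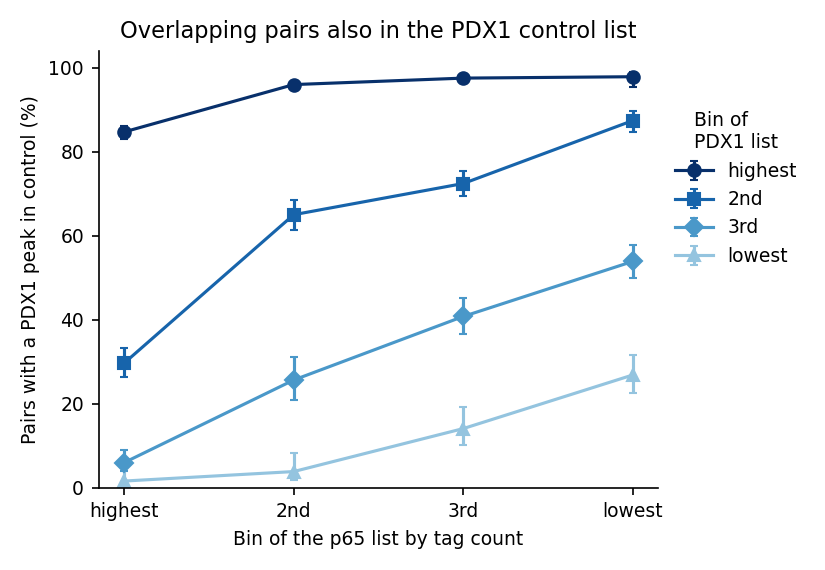
Share of overlapping pairs that also lay on a PDX1 peak of WT control cells, by bin of the p65 list (horizontal axis) and of the PDX1 list (lines), with Wilson 95% intervals. In each PDX1 bin the share is lowest at the strongest p65 peaks (84.7, 29.7, 6.0 and 1.61% from the highest to the lowest PDX1 bin).

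p65 peaks with PDX1 were also more often present without IL-1β. Of the shared p65 peaks 10.5% (10.0 to 11.1%) lay on a p65 peak of the control list, against 2.28% (2.09 to 2.49%) of the unshared, a difference of 8.25 points (7.65 to 8.88). The order held in each p65 bin, with 16.2 against 5.32% in the highest and 4.14 against 1.53% in the lowest. Pairs with a control p65 peak mostly had a control PDX1 peak too, 1068 with it and 92 without. The PDX1 and p65 control lists used the same input.

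In Bmal1-/- cells with IL-1β, the share of p65 peaks also found there differed more between bins of tag count than between shared and unshared peaks. Of the shared p65 peaks 44.6% and of the unshared 38.7% lay on a knockout p65 peak. By bin the shares were 87.7 against 87.9%, 44.7 against 49.4%, 18.9 against 22.1% and 6.16 against 6.38%, so the pooled order was not found within any bin. In the middle 2 bins the difference was -4.69 points (-6.98 to -2.39) and -3.21 points (-5.08 to -1.30). PDX1 differed: 34.5% of the shared and 12.8% of the unshared PDX1 peaks lay on a knockout PDX1 peak with IL-1β, and in the highest bin 60.9 against 44.5% (16.4 points, 14.4 to 18.3). In the lowest 2 bins the interval of that difference included 0. The knockout PDX1 list without IL-1β, which the label conflict does not touch, gave pooled shares of 31.3 and 14.9%. By bin the difference there was 6.20 points (4.2 to 8.2) in the highest. It was -3.60 (-5.15 to -2), -2.53 (-3.51 to -1.40) and -1.14 points (-1.61 to -0.302) in the lower bins in order. The knockout PDX1 windows, of 418 bp with IL-1β and 472 bp without, are wider than the WT ones. The knockout lists are also shorter. With IL-1β they hold 16162 p65 and 8095 PDX1 peaks, against 31389 and 38930 in WT, and the PDX1 list without IL-1β holds 8339. Their length limits every share given here, and a WT region missing from them may hold signal under the caller's thresholds. The knockout PDX1 samples with IL-1β carry the same conflicting label. Of the pairs 23.5% had both factors in the knockout with IL-1β, 21.6% p65 alone, 11.1% PDX1 alone and 43.8% neither. Of the 2135 pairs in the top bin of both lists 61.6% had both.

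SIN3A, mapped without IL-1β, lay at few shared regions. With control siRNA 3.84% of the shared and 5.92% of the unshared p65 peaks overlapped a SIN3A peak, a difference of -2.08 points (-2.56 to -1.59). It was -0.724 points (-1.33 to -0.0557) at 8-fold over input and -0.105 points (-1.28 to 1.15) for the 10000 highest peaks, where the interval includes 0. With Pdx1 siRNA the shares were 5.31 and 6.38%. Among PDX1 peaks the order was the opposite, 3.86% of the shared and 1.43% of the unshared overlapping SIN3A with control siRNA. By PDX1 bin from the highest to the lowest the shares were 6.14 against 4.78%, 2.13 against 1.73%, 1.48 against 0.602% and 1.25 against 0.17%. In the second bin the interval of the difference (-0.172 to 1.06 points) includes 0. The promoter peaks of p65 at Tnfaip3 and Irf1 were among those with SIN3A, as was the Hk1 pair of 59.2 and 152.5 tags.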

How the data were processed

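ChIP-seq of p65 and PDX1 in WT Beta-TC6 cells with IL-1β (3 samples each) was analysed from the authors' deposited peak lists, 1 per group, with 8 other lists for comparison. The submitters' processing notes name Bowtie2, HOMER and mm10 without versions or roles. Per the file headers, HOMER called peaks that passed 4-fold over input, 4-fold over the local 10 kb and a false discovery rate of 0.001. Replicate pooling is not stated, and the labels do not say that samples came from separate cultures. Signal values are tag counts that the authors scaled, per the file headers, to a depth of 10 M. The score is the authors' position-adjusted tag count as deposited. The ratio is the authors' fold over input as deposited. Tag counts ranked peaks only inside their own list. No percent was taken from the files other than the share of tags in peaks in the headers.

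Overlaps, distances, shares and their intervals were computed in Python 3.11.15 with pandas 2.3.3 and numpy 2.4.6, and the code was tested on simulated data. Each peak centre was assigned to the nearest of 21887 RefSeq protein-coding gene bodies (GRCm38.p6) within 50 kb, or to the shortest gene that contained it. That table gives no strand, so kb from a start are given where the promoter table has one. Members, the 12 gene lists (208 genes, all matched) and alternatives were chosen with earlier results of these data known. Genes were named as the 10 strongest peaks or pairs per class, up to 4 shared and 2 single-factor genes per list, the 5 genes with most shared peaks, and Pdx1, Ins1, Ins2, Mafa, Nfkbia, Tnfaip3 and Arntl. Others (Nfkbiz, Il1r1, Irak1, Neurl3, Iapp, Rfx6, Rela, Rora, Mnx1, Nkx2-2, Cry2 and Hk1, where outside that rule) were named for their role after their values had been seen. Peak sequences, which need a genome, were not used here. Some genes that the rule names are not reported here.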

Additional observations from a re-analysis of the deposited data

How the results depend on the processing

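The lists hold no replicate values, so leaving out a replicate was not run. No paired analysis was possible because each list is 1 result for its group, with no value per replicate. The shares of p65 and of PDX1 peaks that overlapped were 25.7 and 20.8% with a reciprocal overlap of 50%, 25.3 and 20.4% with centres within 100 bp, and 39.0 and 31.4% with edges within 500 bp. They were 22.0 and 19.9% at 8-fold over input, 31.8% for both at equal list length, and 27.1% of p65 peaks for the 10000 highest of each list. With centres within 100 bp the p65 difference (shared minus unshared) was -10.2 points at gene ends and 58.6 points in the PDX1 control list.

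At 8-fold over input the p65 differences were -8.07 points at gene ends and 9.75 points beyond 50 kb, and those of PDX1 were 0.297 and -3.65 points. In the other lists they were, for p65, 10.1 points (p65 control), 2.12 points (knockout p65) and -0.724 points (SIN3A), and for PDX1 2.57 points (PDX1 control), 19.2 points (knockout PDX1) and 1.51 points (SIN3A). For the 10000 highest peaks they were, for p65, 76.1 points (PDX1 control), 16.7 points (p65 control), -3.93 points (knockout p65, reversed) and -0.105 points (SIN3A), and for PDX1 -8.67 points (PDX1 control, reversed), 17.7 points (knockout PDX1) and 4.09 points (SIN3A). The reversed differences have the sign seen within bins of tag count. Genes with a shared peak numbered 2045 at 8-fold over input, and within gene bodies alone 2821 had one and 1553 had both factors apart. The cause of these shifts was not tested. Depth limits weak peaks: a region without a peak may hold signal under the caller's thresholds, and the lists do not show it.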

Other observations

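Among chromosomes the share of p65 peaks on a PDX1 peak ran from 29.2% on chromosome 11 (27.2 to 31.4%) to 37.1% on chromosome 16 (34.4 to 39.9%), and the share of PDX1 peaks on a p65 peak from 22.7% on chromosome 14 (20.9 to 24.5%) to 33.2% on chromosome 7 (30.9 to 35.6%). Chromosome 11 had the lowest share for p65 and the second highest for PDX1 (32.3%).

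The highest tag count of the PDX1 list, 4073.8, belongs to a mitochondrial peak without p65 that was only 4.96-fold over input and was also in the PDX1 control list. The second highest, 269 tags with 180.8 p65 tags, is a pair on an unlocalised scaffold of chromosome 1. Sequences outside the assembled nuclear chromosomes (other scaffolds and the mitochondrial genome) held 16 p65 and 21 PDX1 peaks, with 9 pairs.

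Among other islet genes, Pyy, which encodes a peptide hormone, had a shared p65 peak of 48.2 tags with a highest shared PDX1 count of 119.8. Sst, the somatostatin gene, had a shared pair of 29.7 and 102.8 tags, and Gcg, the glucagon gene, had PDX1 alone (17.2 tags).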
